A study of Mus musculus with 24 samples.

Results

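The DNA repair genes followed here were 43 genes named by symbol for their pathway, among them the recombination genes Brca1 and Rad51ap1, the Fanconi anaemia genes, the mismatch repair genes, the end joining genes, the 2 excision pathways and the kinases and complexes that sense damage. Xrcc2 had no probe set in the annotation used here. The other 42 were measured, out of 18193 genes with a probe set that belonged to 1 gene alone. Where a gene had several such probe sets, the one with the highest mean over all 24 arrays stood for it, and 24 of the 42 reached a mean intensity of at least 100 at 1 or more time points and were tested. The other 18 did not reach that level: Bard1, Palb2, Rad52, Xrcc3, Blm, Fanca, Fancd2, Fanci, Fancg, Msh3, Pms2, Prkdc, Ogg1, Mutyh, Xrcc1, Ercc2, Ercc4 and Atm. On the dim side of this level the nearest genes were Rad52, Ercc4 and Atm, with highest time point means of 91.9, 89.3 and 85.3, and on the bright side Chek1, Rad54l and Atr, with 119, 127 and 157.

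The cells were C2C12, an established line of mouse myoblasts that fuse into multinucleate myotubes when serum is withdrawn. The RNA of 8 time points was hybridised to 24 Affymetrix arrays of mouse probe sets, with 3 arrays per time point. Day -1 cells were at 50% confluency and Day 0 cells at 90% confluency in growth medium with 10% serum. Day 0.25 (6 hours), Day 1, Day 2, Day 3, Day 4 and Day 5 were times in medium with 2% serum, as the labels give it. The study's own text names another concentration for differentiation. All groups were thus the same line with no genetic change, and Day 0 differed from Day -1 in cell density and culture time together. The labels do not say that replicates were separate cultures, so the p-values speak only for variation among these arrays, and that variation may be technical. Arrays of 1 time point correlated at r between 0.966 and 0.996. The summed intensity of 9 myoblast and muscle markers rose from between 3831 and 4331 on Day -1 to between 46775 and 53905 on Day 5, while all 7 endothelial and blood cell markers were below 100 on every day. The summed level of 5 measured fibroblast and adipocyte markers, none of them at 0, went from between 34.4 and 50.0 on Day -1 to between 101 and 227 on Day 5. Of these 5 only Pdgfra was tested, and it rose by 2.38 on the log2 scale (limma adjusted p = 2.31e-06). Adipoq and Dpp4 stayed below 4 on average on both days. Pdgfra was not the only one of the 5 to go up. The upper quartile of their log2 differences from Day -1 was 1.16 on Day 3 and 1.41 on Day 4. The part of these 5 markers in the results was not tested. No batch is named in the labels. Values below are intensities, a background-corrected signal on a linear scale that the authors scaled alike on every array, so a probe set can be compared between arrays but not with the probe set of another gene.

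DNA repair is divided among pathways by the kind of damage. Homologous recombination and the Fanconi anaemia pathway copy an intact sister chromatid or unhook crosslinks and are used mainly in replicating cells, whereas end joining seals double-strand breaks at any stage of the cell cycle. Mismatch repair corrects copying errors behind the replication fork, base excision repair removes small damaged bases, and nucleotide excision repair removes bulky adducts in dividing and non-dividing cells alike. Myoblasts leave the cell cycle for good when they form myotubes.

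Between Day -1 and Day 5, 18 of the 24 tested repair genes fell and 1, Xpa, rose, by limma with Benjamini-Hochberg adjusted p-values under 0.05. Of all 7906 genes tested, 38.4% fell and 31.6% rose in the same comparison. The median log2 difference of the 42 measured repair genes was -1.15, against -0.08 over all genes tested. Without the level filter, 30 of the 42 passed as lower and 1 as higher, when 19.5% of 18193 genes fell and 16.8% rose. Of the 18 dim genes 12 passed as lower in that fit, none as higher and 6 did not pass, on weak signals whose differences carry no usable size. A filter on the mean over all 24 arrays drops genes that were bright only early, so fewer repair genes entered and 11 of them fell. Brca2, Rad51ap1, Rad54l, Exo1, Ung, Chek1 and Chek2 were not tested there. The share of all genes that fell under that filter was not computed. The genes that rose were 2 when replicate 2 of Day -1, replicate 2 of Day 0.25 or replicate 3 of Day 5 was left out. Over the 8 time points together, the F test found a change in 23 of the 24 tested genes, Lig4 being the exception, where 89.4% of all genes tested changed.

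**Figure D1:**
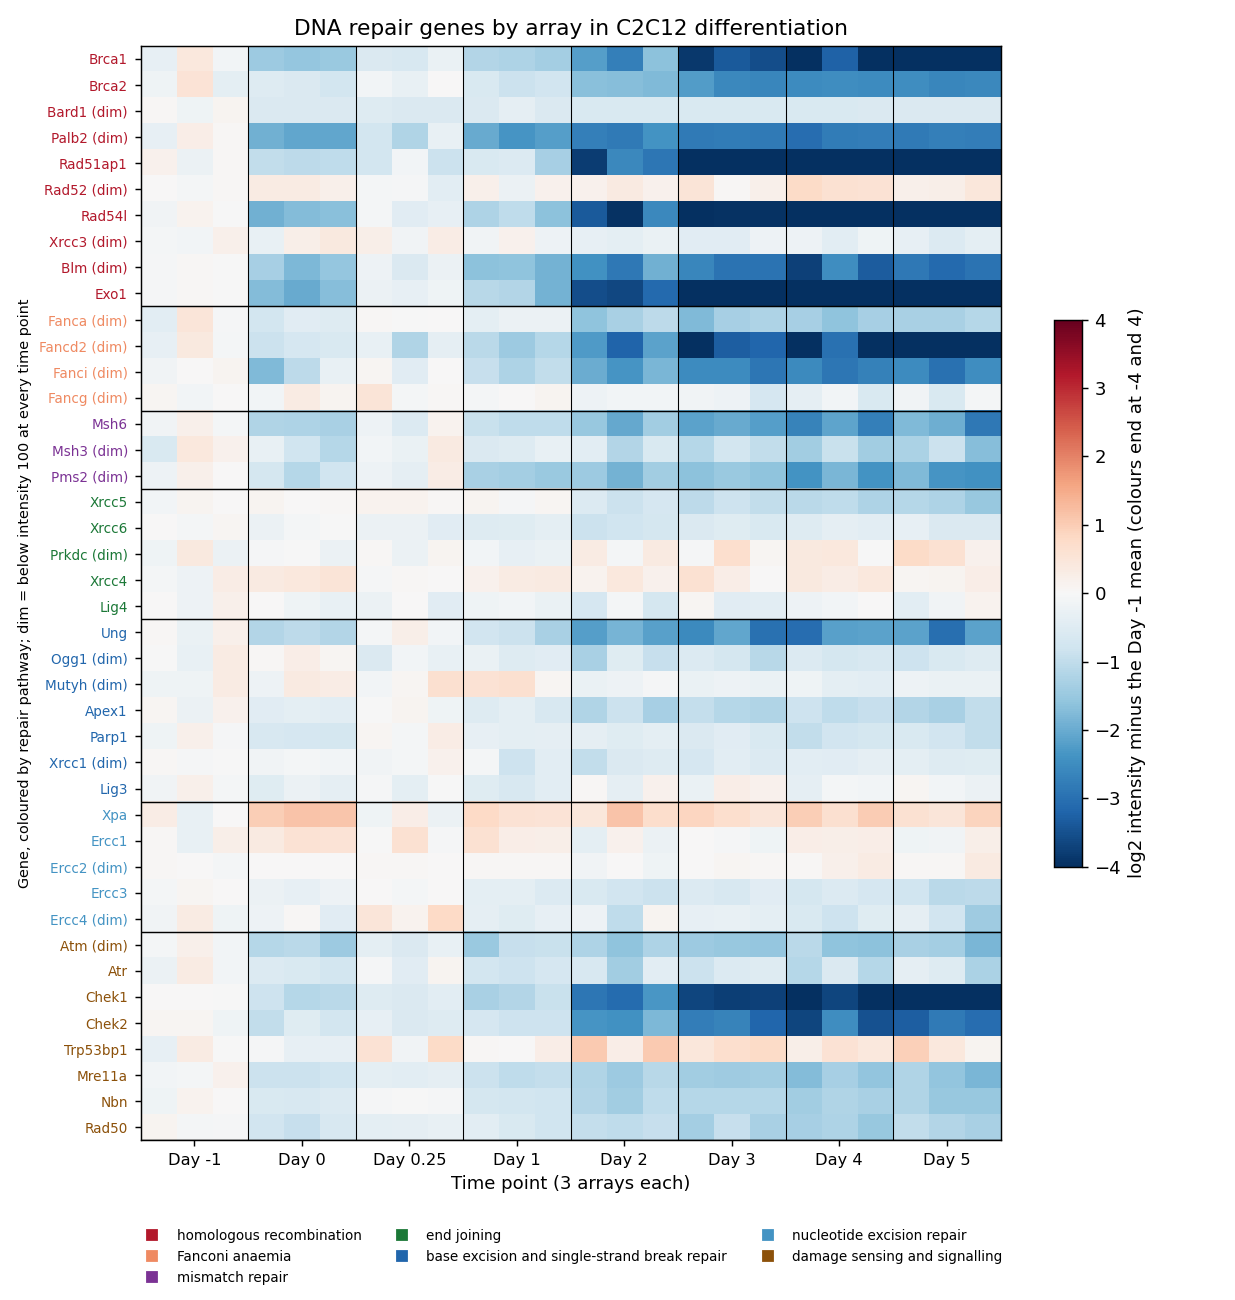
Log2 intensity of each of the 42 measured repair genes on each of the 24 arrays, minus the gene's mean over the Day -1 arrays. Rows are grouped and coloured by pathway, columns are arrays in time order with 3 per time point, and blue is lower than Day -1. Most recombination rows are pale at Day 0.25 and darkest from Day 3 to Day 5, while the Xpa row is above 0 at Day 0 and from Day 1 on.

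Medians differed between pathways. In the homologous recombination group 5 of 5 tested genes fell from Day -1 to Day 5, with a median over the 10 measured genes of -2.88. Of all genes tested 38.4% fell. Brca2, Rad51ap1, Rad54l and Exo1 reached the level filter only before Day 2, so the count of 5 depends in part on that filter. The median was -2.19 for the 3 mismatch repair genes and -1.46 for the 8 damage sensing genes. It was -0.64 for the 7 base excision genes, -0.15 for the 5 end joining genes and -0.02 for the 5 nucleotide excision genes. These medians include dim genes, and none is given for the 4 Fanconi anaemia genes, which were all dim. Over tested genes alone, with values below 50 raised to 50, they were -1.97 for recombination (5 genes), -2.19 for mismatch repair (1 gene), -1.25 for damage sensing (7), -0.96 for base excision (4), -0.33 for end joining (4) and -0.02 for nucleotide excision (3), so that recombination no longer stood lowest. These differences between pathways were not tested. Genes that copy DNA and genes of mitosis moved over the same days: all 25 tested replication genes fell, with a median of -2.92 over 26 measured, as did all 18 mitosis genes, with a median of -4.98. The summed level of the 26 replication genes lay between 35699 and 39323 on Day -1, 22745 and 24025 on Day 0, 35629 and 39093 on Day 0.25, 23393 and 26814 on Day 1, and 5853 and 7123 on Day 5. Their part in the change of the repair genes was not tested, and in RNA of whole cultures fewer cycling cells and less RNA per cell cannot be told apart.

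**Figure D2:**
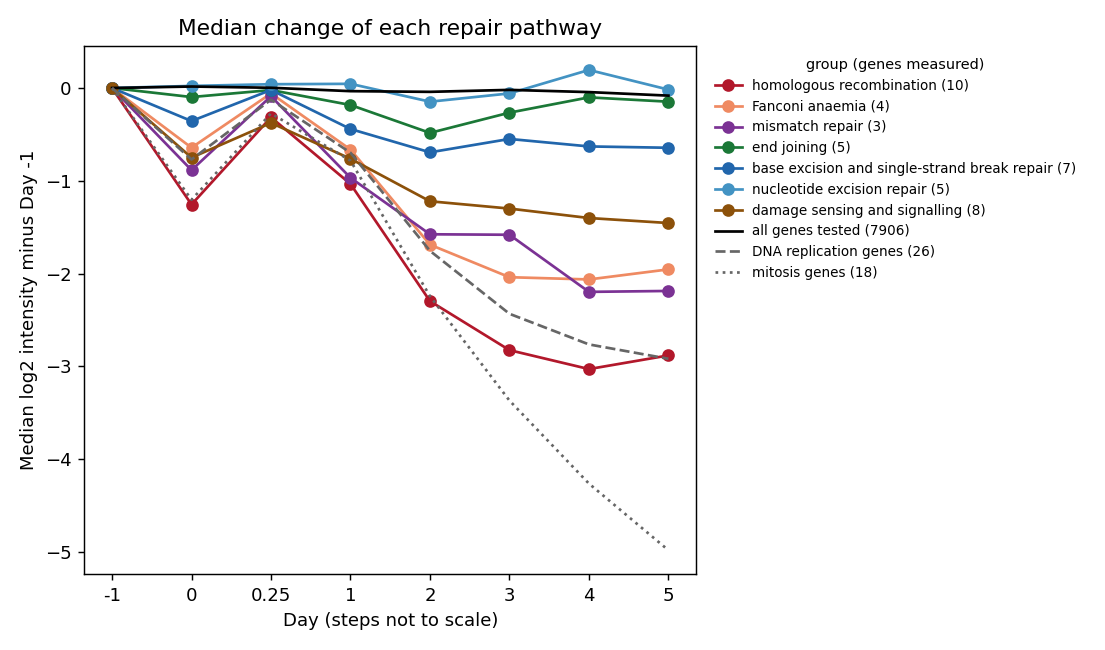
Median log2 intensity minus Day -1 at each time point for each repair pathway, with the number of genes measured in brackets. Grey lines are replication and mitosis genes and the black line is the median of all 7906 genes tested. The Fanconi anaemia line rests on dim genes alone, so its depth has no usable size. By Day 5 the recombination line (-2.88) lies next to that of the replication genes (-2.92), although over tested genes alone the medians were -5.35 and -2.97, while nucleotide excision (-0.02) and end joining (-0.15) lie near the line of all genes.

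The course was not one of steady fall. From Day -1 to Day 0, 16 of the 24 tested repair genes fell and 3 (Xrcc4, Xpa and Ercc1) rose, when 21.5% of all genes tested fell and 25.2% rose. From Day 0 to Day 0.25 the picture turned round: 13 rose and 2 (Xrcc4 and Xpa) fell, with 21.5% of all genes rising and 23.6% falling. Both comparisons use the Day 0 arrays, so that a low or high reading there moves both in opposite directions. In the comparison of Day -1 with Day 0.25, which leaves the Day 0 arrays out, 2 repair genes fell and none rose, when 6.74% of all genes fell and 10.5% rose. These 2 were Xrcc6, with a log2 difference of -0.29 and limma adjusted p of 0.0328, and Mre11a, with -0.40 and 0.0366. Neither passed when replicate 1 or replicate 3 of Day -1 or replicate 3 of Day 0.25 was left out, and 1 gene fell when replicate 1 or replicate 2 of Day 0.25 was. With values below 50 raised to 50 the falls were 6, with Chek1 (-0.51, limma adjusted p = 0.000414), Chek2 (-0.48, 0.00231), Rad51ap1 (-0.57, 0.0253) and Rad54l (-0.29, 0.0404) passing as well. From Day 0.25 to Day 1, 10 fell and 1 (Xpa) rose, with 14.1% and 12.3% of all genes. Without Day -1 replicate 2 the genes that rose to Day 0 were 1, without Day 0 replicate 2 those that rose to Day 0.25 were 8, and without Day 0.25 replicate 3 none rose to Day 1. The falls from Day 0 to Day 0.25 were 1 when Day 0 replicate 3 or Day 0.25 replicate 1 was left out.

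From Day 1 to Day 2, 15 tested repair genes fell and 2 (Lig3 and Trp53bp1) rose, when 21.4% of all genes fell and 23.5% rose. Neither rise passed when Day 1 replicate 2 was left out, nor when replicate 1 or replicate 3 of Day 2 was, and 1 gene rose when Day 1 replicate 1 was. From Day 2 to Day 5 a further 9 fell and 1 (Xrcc6) rose, with 21.5% and 12.5% of all genes. Most of these late falls lay below an intensity of 50: with values below 50 raised to 50, the falls of Brca1, Xrcc5 and Parp1 passed and those of Brca2, Rad51ap1, Rad54l, Exo1, Chek1 and Chek2 did not. The rise of Xrcc6 was lost when replicate 1 of Day 2 or of Day 5 was left out. A fit to the 6 arrays of the 2 days alone gave 8 falls from Day 1 to Day 2, and 2 falls and no rise from Day 2 to Day 5. Of the 24 tested genes, 16 had their highest mean on Day -1, and 16 had their lowest on Day 4 (7 genes) or Day 5 (9 genes). The same counts over all genes tested were not made. Brca2, Rad51ap1, Rad54l, Exo1, Ung, Atr, Chek1 and Chek2 reached the level filter only before Day 2, so these counts depend in part on that filter. Of the 18 dim genes, 10 had their highest mean on Day -1.

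Rad51ap1 encodes an accessory factor of homologous recombination, and it had the lowest measured log2 difference of the tested repair genes, on Day 5 signals far below 50. Its intensity was 277, 212 and 258 on Day -1, 124, 119 and 123 on Day 0, 149, 228 and 136 on Day 0.25, 164, 170.0 and 98.9 on Day 1, 17.9, 41.8 and 33.1 on Day 2, 11.7, 6.41 and 5.86 on Day 3, 3.03, 4.39 and 2.67 on Day 4, and 2.80, 2.64 and 2.58 on Day 5. The 3 Day -1 arrays lay above all later arrays except 1 of Day 0.25, and from Day 2 on every array lay below every earlier one. The log2 difference from Day -1 to Day 5 was -6.53 ± 0.30 (SE from limma, adjusted p = 1.89e-13), and with values below 50 raised to 50 it was -2.31, a fall of at least 4.95-fold. On that scale Brca1 fell further.

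Brca1, whose product controls the resection and strand invasion steps of recombination, read 409, 687 and 479 on Day -1, 187, 176 and 184 on Day 0, 343, 331 and 428 on Day 0.25, 229, 219 and 202 on Day 1, 112, 77.1 and 163 on Day 2, 35.4, 49.5 and 43.6 on Day 3, 10.1, 54.7 and 16.7 on Day 4, and 13.2, 14.1 and 10.5 on Day 5. Its 3 Day 0 arrays lay below all arrays of Day -1 and of Day 0.25. It was 2.81-fold lower on Day 0 than on Day -1 (limma adjusted p = 0.00415) and 2.00-fold higher again 6 hours after the change of medium (adjusted p = 0.0436). From Day -1 to Day 5 the log2 difference was -5.35 ± 0.39 (SE, limma adjusted p = 1.99e-10), or a fall of at least 10.2-fold with values below 50 raised to 50. Brca2, which acts in the strand invasion step of recombination, had a log2 difference from Day -1 to Day 5 of -2.56, a fall of at least 3.10-fold. Its intensity was 137, 228 and 119 on Day -1, 108, 104 and 93.0 on Day 0, 144, 126 and 156 on Day 0.25, 102, 85.2 and 90.3 on Day 1, and 27.6, 25.6 and 25.7 on Day 5. Its drop at Day 0 and return at Day 0.25 were smaller than those of Brca1, at -0.61 and 0.48, and passed the test. That difference between the 2 genes was not tested.

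Exo1, the exonuclease of end resection and of mismatch repair, and Rad54l, a motor protein of recombination, also dipped at Day 0. Exo1 read 190.0, 202 and 195 on Day -1, 58.5, 48.6 and 59.5 on Day 0, 167, 155 and 173 on Day 0.25 and 90.5, 86.7 and 52.4 on Day 1. Rad54l read 115, 141 and 126 on Day -1, 33.8, 38.0 and 40.2 on Day 0, 119.5, 93.4 and 100.4 on Day 0.25 and 53.7, 62.3 and 40.9 on Day 1. For both genes the Day 0 arrays lay apart from the arrays of Day -1 and of Day 0.25. With values below 50 raised to 50, Exo1 was at least 3.50-fold lower on Day 0 than on Day -1 (limma adjusted p = 6.36e-06 as measured) and at least 2.95-fold higher on Day 0.25 than on Day 0 (4.15e-05). On the same scale Rad54l was at least 2.53-fold lower (4.38e-05) and then at least 2.08-fold higher (0.000332). By Day 5 the falls were at least 3.91-fold for Exo1 and at least 2.53-fold for Rad54l. Of the 5 dim recombination genes, Palb2 and Blm passed as lower without the level filter, from between 56.4 and 83.8 to between 9.78 and 10.5 and from between 54.5 and 58.4 to between 6.51 and 7.74. Bard1 passed too, but its highest array read 2.76, below the median of every array, so that it was not above background and no fall can be stated. Xrcc3 (-0.42) and Rad52 (0.29) did not pass.

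The sequences just upstream of Rad51ap1 and Brca1 are shown because these genes had the lowest measured log2 differences from Day -1 to Day 5 among the tested genes with such a window. They are RefSeq windows on build GRCm38.p6, from 250 bases before the gene's start to 50 after it, written along the gene's strand, which is the minus strand for both. The Rad51ap1 window is chr6:126939538-126939837 and the Brca1 window chr11:101551906-101552205. Capitals mark CCAAT, the motif bound by the factor NF-Y, or ATTGG, the same motif on the opposite strand. Their first bases lay at -230 and -36 from the Rad51ap1 start and at -86 from the Brca1 start.
Rad51ap1: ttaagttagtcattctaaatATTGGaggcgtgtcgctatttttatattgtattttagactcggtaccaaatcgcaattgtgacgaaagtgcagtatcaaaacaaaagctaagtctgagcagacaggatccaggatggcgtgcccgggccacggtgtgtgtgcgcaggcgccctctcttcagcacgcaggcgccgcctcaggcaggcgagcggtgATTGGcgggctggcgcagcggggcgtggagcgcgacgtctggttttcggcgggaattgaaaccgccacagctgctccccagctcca
Brca1: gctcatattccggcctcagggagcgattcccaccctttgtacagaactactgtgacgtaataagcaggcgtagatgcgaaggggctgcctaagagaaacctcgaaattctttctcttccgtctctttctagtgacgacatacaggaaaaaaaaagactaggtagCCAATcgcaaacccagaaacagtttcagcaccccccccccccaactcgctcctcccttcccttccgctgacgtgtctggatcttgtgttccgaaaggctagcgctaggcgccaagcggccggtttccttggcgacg

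Of the 43 repair genes, 36 had such a window. CCAAT, searched on both strands, stood in 21 of the 36 (58.33%), against 41.06% of the windows of all 27025 genes. The E2F motif, bound by the E2F factors of S phase genes and searched as TTTCCCGC, TTTCGCGC, TTTGCCGC or TTTGGCGC on both strands, stood in 7 of the 36 (19.44%), against 2.605% of all genes. Matches of different motifs can share bases at their ends. The CHR motif of late cell cycle genes, TTTGAA or TTCGAA on both strands, stood in 3 of the 36 (8.33%), against 21.66% of all genes. These shares are descriptions of letters in the windows and were not tested. The 7 genes with an E2F match were Brca2, Bard1, Fancg, Msh6, Msh3, Xrcc6 and Chek2, and their matches are shown with 12 bases on either side, since the ratio of the 2 shares was highest for this motif, although the gap in percentage points was larger for CCAAT. Brca2, Msh6, Xrcc6 and Chek2, 4 of them, were among the 14 tested genes with a window that passed as lower on Day 5 than on Day -1. None was among the 6 other tested genes with a window. In the same 2 sets CCAAT stood in 9 and 1 genes and CHR in 2 and 0. The numbers are small and this split was not tested for any motif.

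All stretches are again GRCm38.p6, along the gene's strand, with the match in capitals. They lie at chr5:150522441-150522472 (plus strand) for Brca2, chr1:71103162-71103193 (minus) for Bard1, chr4:43010334-43010365 (minus) for Fancg, chr17:87975053-87975084 (plus) for Msh6, chr13:92355186-92355217 (minus) for Msh3, chr15:82016311-82016342 (plus) for Xrcc6 and chr5:110839819-110839850 (plus) for Chek2. In Msh3 a match on the opposite strand overlaps the one in capitals. The Xrcc6 stretch lies inside the gene's span on that build, 81987833 to 82040085, far from both ends.
Brca2: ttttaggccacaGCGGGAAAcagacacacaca
Bard1: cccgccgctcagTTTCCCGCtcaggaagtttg
Fancg: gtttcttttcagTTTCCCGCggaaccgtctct
Msh6: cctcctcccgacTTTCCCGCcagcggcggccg
Msh3: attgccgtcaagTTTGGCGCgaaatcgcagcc
Xrcc6: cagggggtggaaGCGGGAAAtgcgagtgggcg
Chek2: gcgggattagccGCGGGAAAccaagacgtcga

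The Fanconi anaemia genes, whose products recognise DNA crosslinks, were all dim. Fancd2, the protein that is ubiquitylated when the pathway is switched on, read 37.9, 63.4 and 45.8 on Day -1, 26.6, 30.3 and 31.1 on Day 0, 38.8, 20.8 and 37.1 on Day 0.25, 22.8, 17.4 and 21.7 on Day 1, and 2.70, 1.65 and 2.73 on Day 5. Fancg, a member of the core complex, read 14.6, 12.8 and 13.9 on Day -1 and 12.4, 9.05 and 12.9 on Day 5. The Fancd2 arrays of Day -1 and Day 5 lay apart and those of Fancg overlapped. Without the level filter Fancd2, Fanci and Fanca passed as lower and Fancg did not. Since every value lay below 100, these were weak signals and no size is given for their differences.

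Msh6, whose product recognises mispaired bases, was the tested mismatch repair gene. It read 562, 715 and 583 on Day -1, 265, 263 and 252 on Day 0, 536, 425 and 673 on Day 0.25, 335, 307 and 304 on Day 1, 218, 148 and 233 on Day 2, 139, 151 and 135 on Day 3, 97.5, 143 and 93.2 on Day 4, and 181, 161 and 85.1 on Day 5. Every array from Day 1 on lay below every array of Day -1 and of Day 0.25, and the Day 0 arrays lay between those of Day 1 and Day 2. It was 2.37-fold lower on Day 0 than on Day -1 (limma adjusted p = 0.00025), 2.06-fold higher on Day 0.25 than on Day 0 (0.0015), and 4.55-fold lower on Day 5 than on Day -1 (5.87e-08). Its fall from Day 2 to Day 5, of 0.53, did not pass. Pms2, which carries a nuclease activity, and Msh3, which recognises longer loops, were dim and passed as lower without the level filter.

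In end joining 2 of the 4 tested genes fell from Day -1 to Day 5, Xrcc5 and Xrcc6, and none rose. Of all genes tested 38.4% fell and 31.6% rose, and 4 genes are too few to set apart from these shares. Xrcc5 and Xrcc6 encode the Ku80 and Ku70 subunits of the Ku ring, which binds broken ends. Xrcc5 read 280.2, 329 and 305 on Day -1, 331, 307 and 312 on Day 0, 337, 335 and 313 on Day 0.25, 325, 295 and 318 on Day 1, 209, 166 and 193 on Day 2, 146, 173 and 153 on Day 3, 145, 152 and 128 on Day 4, and 138, 128 and 106 on Day 5. Up to Day 1 its arrays overlapped from 1 time point to the next, and from Day 2 on all lay below all earlier ones. No comparison of time points up to Day 1 passed for Xrcc5, its fall from Day 1 to Day 2 was 1.66-fold (limma adjusted p = 2.7e-05), and by Day 5 it stood 2.46-fold below Day -1 (1.49e-09). Xrcc6 read 449, 423 and 469 on Day -1, 309, 319 and 344 on Day 1, 249, 258 and 277 on Day 2, 302, 316 and 295 on Day 3, 312, 352 and 332 on Day 4, and 355, 297 and 297 on Day 5. It was lowest on Day 2 and higher on all later arrays. From Day -1 to Day 5 it was 1.42-fold lower (6.88e-05). The SEs of the 2 log2 differences, -1.30 ± 0.11 for Xrcc5 and -0.50 ± 0.09 for Xrcc6, do not meet, but the difference between the subunits was not tested.

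Xrcc4 and Lig4, the scaffold and the ligase that close the break, did not pass from Day -1 to Day 5, with log2 differences of 0.15 ± 0.13 and -0.15 ± 0.18. Xrcc4 ran against most repair genes around Day 0. It read 158, 142 and 200.5 on Day -1, 213, 219 and 235 on Day 0, and 161, 172 and 165 on Day 0.25, with Day 0 apart from both. Its rise of 0.43 and its return by 0.42 passed the test (limma adjusted p = 0.0122 and 0.0151). Prkdc, the catalytic subunit of the kinase that Ku recruits, was dim, with values between 19.2 and 41.1 on single arrays, and did not pass without the level filter.

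**Figure D3:**
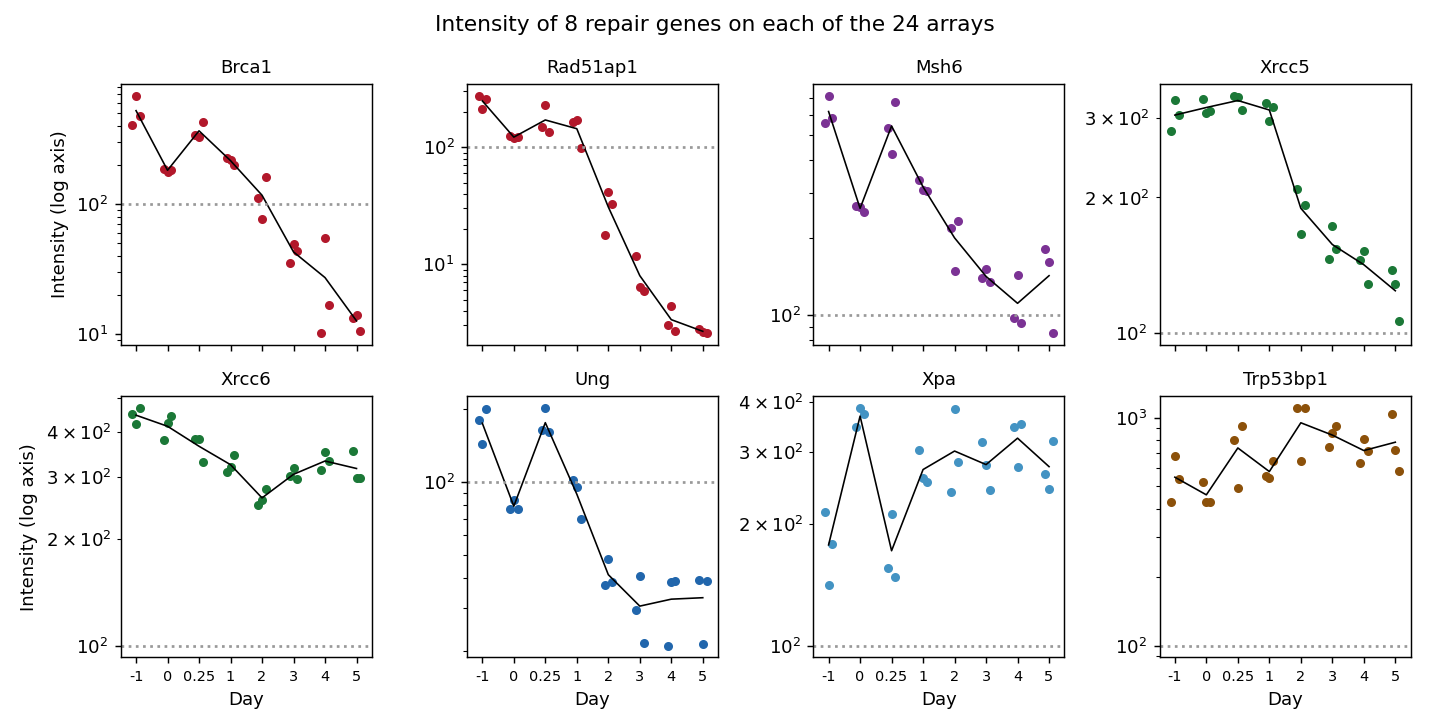
Intensity on a log axis for 8 repair genes, with 1 point per array, a line through the time point means and a dotted line at the level of 100 (each panel has its own scale). Brca1, Msh6 and Ung dip at Day 0 and return at Day 0.25, Xpa does the reverse, and Xrcc5 holds near 300 until Day 1 and then falls.

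In base excision repair, Ung, the glycosylase that removes uracil, moved most. Its values were 180.2, 143 and 200.3 on Day -1, 76.9, 83.8 and 77.1 on Day 0, 164, 202 and 161 on Day 0.25, 101, 95.2 and 69.9 on Day 1, 37.4, 47.9 and 38.7 on Day 2, 29.6, 40.8 and 21.6 on Day 3, 21.1, 38.4 and 38.8 on Day 4, and 39.4, 21.3 and 38.9 on Day 5. Day 0 lay apart from Day -1 and Day 0.25, and all arrays from Day 2 on lay below all earlier ones. It was 2.18-fold lower on Day 0 than on Day -1 (limma adjusted p = 0.00164), 2.20-fold higher on Day 0.25 (0.00175), and at least 3.45-fold lower on Day 5 than on Day -1 (6.28e-08). Apex1, the endonuclease that cuts at the abasic site, fell by 1.15 over the whole course, from between 1078 and 1431 on Day -1 to between 525 and 642 on Day 5.

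Parp1, which detects single-strand breaks and marks them with poly(ADP-ribose), fell by 0.68 to Day 0, rose by 0.79 to Day 0.25 and fell by 0.78 over the whole course. Of its 3 tested probe sets, a second fell by 0.45 (limma adjusted p = 0.011) and the third had a log2 difference of 0.05 that did not pass. Lig3, the ligase of this pathway, read 241, 305 and 249 on Day -1 and 281, 242 and 226 on Day 5 on its brightest probe set, which overlap, and its log2 difference of -0.08 did not pass. Its 3 other tested probe sets fell by 0.87, 0.58 and 0.81 (limma adjusted p = 0.00132, 0.0323 and 0.00645), so that the result for Lig3 depended on the probe set. Lig3 and Parp1 were the only 2 of the 8 repair genes with several tested probe sets whose calls from Day -1 to Day 5 differed between them. Of the dim genes of this group, Ogg1 and Xrcc1 passed as lower without the level filter and Mutyh did not.

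Nucleotide excision repair held the 1 gene that rose. Xpa, the protein that checks the damaged strand before it is cut, read 213, 141 and 178 on Day -1, 346, 386 and 373 on Day 0, 156, 211 and 147 on Day 0.25, 305, 259 and 253 on Day 1, 239, 383 and 284 on Day 2, 318, 278 and 243 on Day 3, 347, 275 and 353 on Day 4, and 266, 243 and 320.4 on Day 5. The Day 0 arrays lay above those of Day -1 and of Day 0.25, which overlapped each other, and all arrays from Day 1 on lay above both. Xpa was 2.11-fold higher on Day 0 than on Day -1 (limma adjusted p = 8.84e-05), 2.18-fold lower on Day 0.25 (7.2e-05), 1.60-fold higher on Day 1 (0.00919) and 1.57-fold higher on Day 5 than on Day -1 (0.00335).

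The promoter window of Xpa, shown because it was the 1 tested repair gene that rose, is chr4:46196262-46196561 on GRCm38.p6, minus strand, written along the gene. It holds 1 CCAAT, in capitals, whose first base lies at -238, and no E2F or CHR match.
Xpa: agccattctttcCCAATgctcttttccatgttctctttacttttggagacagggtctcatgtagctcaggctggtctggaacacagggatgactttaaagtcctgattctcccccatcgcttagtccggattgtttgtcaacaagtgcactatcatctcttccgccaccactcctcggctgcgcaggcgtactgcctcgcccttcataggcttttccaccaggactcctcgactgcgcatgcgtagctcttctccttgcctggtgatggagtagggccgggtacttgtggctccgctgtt

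Ercc1 and Ercc4 encode the 2 parts of the nuclease that cuts on the 5′ side of the lesion. Ercc1 read 279.8, 220.3 and 314 on Day -1, 341, 403 and 390.4 on Day 0, 407, 326 and 313 on Day 1, and 204, 305 and 228 on Day 2. It rose by 0.49 to Day 0 and fell by 0.51 from Day 1 to Day 2 (limma adjusted p = 0.0294 and 0.0235), and its difference over the whole course, -0.02 ± 0.18, did not pass. Ercc4 was dim and passed as lower over the whole course without the level filter. Ercc3, a helicase of TFIIH that opens the helix and also serves transcription, read 448, 500.2 and 481 on Day -1 and 276, 226 and 232 on Day 5, with no overlap. It was 1.96-fold lower on Day 5 (limma adjusted p = 1.23e-08), while Ercc2, the other TFIIH helicase, was dim, had a log2 difference of 0.15 and did not pass.

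Among the genes that sense damage, the checkpoint kinases Chek1 and Chek2, which halt the cycle on orders of ATR and ATM, ended below 50 on Day 5. Chek1 read 120.0, 119.8 and 118 on Day -1, 67.6, 54.3 and 56.2 on Day 0, 83.4, 79.3 and 89.3 on Day 0.25, 48.3, 53.2 and 63.7 on Day 1, 16.0, 14.0 and 23.6 on Day 2, and 4.07, 3.12 and 2.89 on Day 5. Its arrays of Day -1, Day 0, Day 0.25, Day 1 and Day 2 did not overlap between neighbours in time, although the return at Day 0.25, of 0.51, did not pass. It fell by at least 2.38-fold from Day -1 to Day 5 with values below 50 raised to 50 (log2 difference -5.17 ± 0.30 as measured, limma adjusted p = 6.21e-12). Chek2 fell from between 167 and 198 on Day -1 to between 19.0 and 26.1 on Day 5, by at least 3.73-fold.

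The MRN complex, made of Mre11a, Rad50 and Nbn, holds broken ends together and activates ATM, and its 3 genes each fell to Day 0, rose to Day 0.25 and ended lower. Mre11a read 409.9, 413 and 496 on Day -1, 241, 243 and 251 on Day 0, 331, 325 and 339 on Day 0.25, and 189.6, 148 and 124 on Day 5. Nbn read 322, 399 and 369 on Day -1, 239, 231 and 247 on Day 0, 351, 358 and 349.9 on Day 0.25, and 157, 126 and 125 on Day 5. Rad50 read 228, 199.7 and 203 on Day -1, 125, 110.0 and 136 on Day 0, 161, 162 and 171 on Day 0.25, and 107, 92.9 and 85.9 on Day 5. In all 3 genes the Day 0 arrays lay below those of Day -1 and of Day 0.25, and the Day 5 arrays lay below those of Day 0. The log2 differences from Day -1 to Day 0 were -0.84, -0.60 and -0.77, those from Day 0 to Day 0.25 were 0.44, 0.56 and 0.42, and those from Day -1 to Day 5 were -1.53, -1.42 and -1.15, and all 9 passed. From Day -1 to Day 0.25 Mre11a was still lower (-0.40, limma adjusted p = 0.0366), while Rad50 (-0.35, 0.0537) and Nbn (-0.04, 0.857) did not pass, and the difference between the genes was not tested.

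Trp53bp1 encodes 53BP1, which holds back end resection and so favours end joining. It read 427, 682 and 539 on Day -1, 524, 427 and 428 on Day 0, 799.7, 492 and 923 on Day 0.25, 554, 543 and 648 on Day 1, 1107, 644 and 1106 on Day 2, 745, 857 and 921 on Day 3, 631, 807 and 719 on Day 4, and 1044, 721 and 582 on Day 5. Arrays of neighbouring time points overlapped throughout. Replicate 2 was the lowest of its 3 on Day 0, Day 0.25, Day 1 and Day 2, by little on Day 0 and Day 1. The rises from Day 0 to Day 0.25 (0.64, limma adjusted p = 0.0406) and from Day 1 to Day 2 (0.67, 0.0316) passed, and the log2 difference from Day -1 to Day 5, 0.49 ± 0.24, did not (0.0784). Without Day -1 replicate 2 it was 0.66 and passed (0.0347), as it did without Day 5 replicate 3, at 0.69 (0.0264).

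The Trp53bp1 window is chr2:121271358-121271657 on GRCm38.p6, minus strand. It lies inside the gene's span on that build, 121194835 to 121296354, far from both ends. It is shown because the gene's difference from Day -1 to Day 5 was second to that of Xpa among the tested genes. None of the 3 motifs was found in it.
Trp53bp1: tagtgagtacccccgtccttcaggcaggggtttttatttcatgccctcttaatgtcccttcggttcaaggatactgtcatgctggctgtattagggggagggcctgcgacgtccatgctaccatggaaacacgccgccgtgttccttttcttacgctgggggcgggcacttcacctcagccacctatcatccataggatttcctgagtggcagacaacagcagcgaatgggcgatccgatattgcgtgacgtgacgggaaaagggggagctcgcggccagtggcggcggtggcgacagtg

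Atr, the kinase that answers stalled replication forks, fell by 0.72 from Day -1 to Day 5 (limma adjusted p = 0.0125), from 133, 196 and 143 to 119.7, 109 and 64.2. Those arrays did not overlap, but the fall did not pass without Day -1 replicate 2 (-0.55, 0.0732) or without Day 5 replicate 3 (-0.44, 0.105). Atm, the kinase that answers double-strand breaks, was dim and passed as lower without the level filter, from between 78.7 and 97.3 to at most 34.7.

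**Figure D4:**
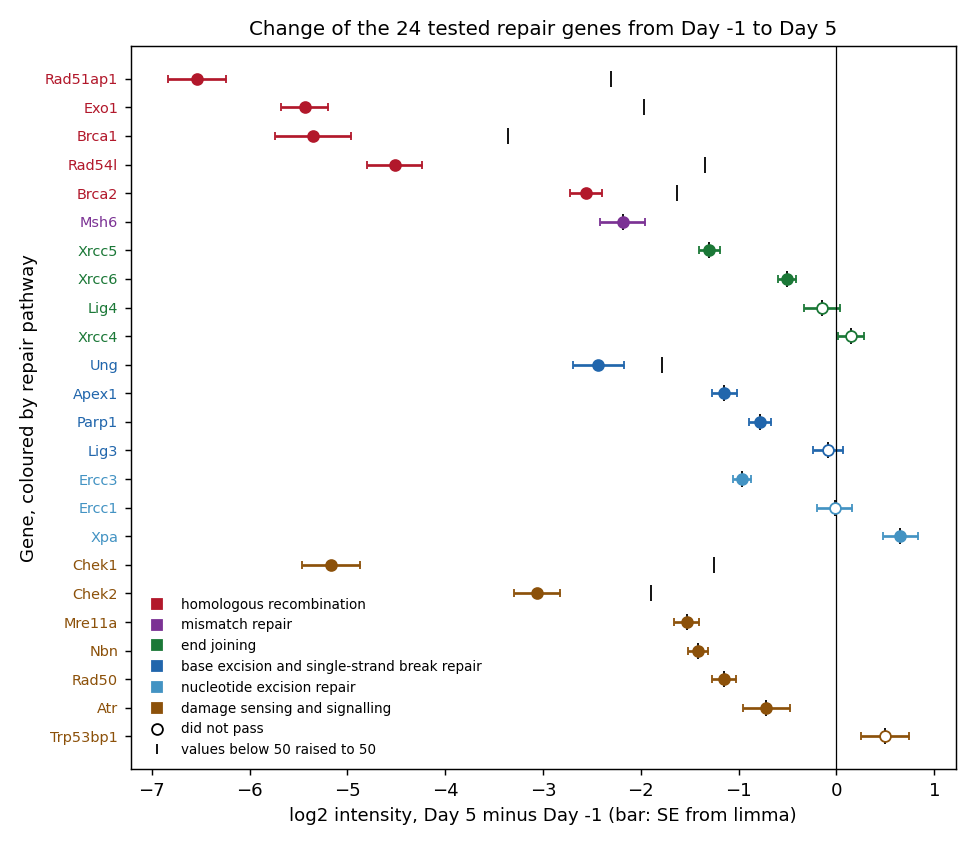
Log2 intensity on Day 5 minus Day -1 for the 24 tested repair genes, coloured by pathway, with the SE from limma as a bar. Filled points passed the adjusted p of 0.05, open points did not, and black ticks give the difference with values below 50 raised to 50. The points of 4 recombination genes and Chek1 lie furthest to the left. Their ticks lie among those of the other genes that fell, except for Brca1 and, just beyond Msh6, Rad51ap1. Xpa is the 1 filled point to the right of 0.

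A wider list of 108 other repair genes, drawn up from the textbook pathways, had 97 measured and 63 tested genes, of which 36 fell and 10 rose from Day -1 to Day 5, with a median of -0.46 over those measured, beside the 38.4% of all genes that fell and the 31.6% that rose. By pathway, 9 of 11 tested recombination genes fell, 5 of 7 Fanconi genes, 12 of 14 damage sensing genes, 4 of 9 base excision genes, 3 of 13 nucleotide excision genes and 3 of 9 translesion or direct reversal genes. None of the 18 tested recombination and Fanconi genes rose, and 5 nucleotide excision, 3 translesion and 2 base excision genes did. The shares of the 2 excision groups and of the translesion group are near or below those over all genes, for falls and for rises alike. No other mismatch repair or end joining gene was tested.

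The named examples of that list have the lowest adjusted p in each direction within their pathway. In recombination Eme1, a subunit of the MUS81 nuclease, fell by 5.85 and Mms22l, a factor that acts at stalled forks, by 3.22. In the Fanconi group Fancb fell by 4.84 and Usp1, which removes ubiquitin from FANCD2, fell by 2.07. H2ax, the histone phosphorylated at breaks, fell by 2.59, and Tipin, a fork protection factor, fell by 2.15. Rad18, the ubiquitin ligase that calls in translesion polymerases, fell by 3.57 and the polymerase gene Polh by 1.00.

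Genes of this list that rose lay in the excision and translesion groups, at shares near or below that over all genes. Ercc5, the nuclease that cuts on the 3′ side of a lesion, rose by 0.89 ± 0.15 (SE, limma adjusted p = 3.85e-05), and Uvssa, a factor of transcription-coupled repair, by 0.85 ± 0.23. Rev1, a translesion scaffold, rose by 0.64 and Ube2b, the partner of RAD18, by 0.48. In base excision repair the glycosylase gene Neil1 rose by 0.61 and Aptx, which cleans abortive ligation ends, by 0.41, while Neil3 fell by 1.94 and the flap nuclease gene Fen1 by 1.70. Rad23b and Cdk7, of nucleotide excision repair, fell by 0.36 and 0.42.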

How the data were processed

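RNA of C2C12 cells was hybridised by the authors to 24 arrays, and all were used. The deposited table gives a linear intensity for each probe set, computed by the authors with GC-RMA, put back on the linear scale and scaled so that each array had a trimmed mean (2% trim) of 150. The trimmed mean lay between 144 and 155 on each array, and no 2 arrays were identical. The submitters' processing notes also name MAS5, with no role given. Gene names come from GEO's annotation of the array, in which 34945 of 45037 probe sets had 1 gene and 932 had several. The members and lists were chosen with earlier results of these data known.

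Log2 intensities were fitted with limma 3.58.1 in R 4.3.3, in 1 fit of 8 time point means, over the 13735 probe sets whose mean reached 100 at 1 or more time points, control probe sets left out. P-values were adjusted over all of them (Benjamini-Hochberg, threshold 0.05). Shares of all genes count 1 probe set per gene. An exact permutation test of 3 arrays against 3 cannot go under 0.1, so none was used. The number of arrays limits the precision. In data simulated on the Day -1 to Day 5 comparison over 13735 probe sets, 22 of 50 changes of 0.5, 42 of 50 of 1, 49 of 50 of 2 and 41 of 50 of -1 on the log2 scale were recovered, with 8 false calls. No other probe set changed there, whereas 38.4% of genes fell and 31.6% rose in the data. The p-value adjustment thus differed, and these shares do not hold for the real comparison. Fold changes called "at least" had values below 50 raised to 50. The alternatives were no level filter, a filter on the overall mean, a fit of 2 groups, a replicate block, quantile normalization, the floor of 50, another choice of probe set, and each array left out. Values by array were given for the genes with the lowest and highest difference from Day -1 to Day 5 in each pathway, for subunits of 1 complex, and for some others chosen after their values were seen. Other repair genes were named by the lowest adjusted p, up to 2 in each direction per pathway. Promoter windows come from a RefSeq table, and all 1866 pairs of overlapping windows on opposite strands were reverse complements, so that sequences run along the gene's strand. The E2F stretches were chosen for printing after the counts were seen.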

Additional observations from a re-analysis of the deposited data

How the results depend on the processing

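Day 5 against Day -1 showed 18 falls under the 2-group fit, the replicate block, quantile normalization and the floor of 50. Without the level filter 42 genes rather than 24 enter: there were then 30 such falls, 35 genes changed over the time course, and 1 rose between Day 1 and Day 2. With a mean of at least 100 over all 24 arrays fewer genes enter, and the falls were 9 for Day 0 against Day -1, 6 for Day 1 against Day 0.25, 9 for Day 2 against Day 1, 3 for Day 5 against Day 2 and 11 for Day 5 against Day -1. A fit of 2 groups gave 8 falls for Day 2 against Day 1, and 2 falls and 0 rises for Day 5 against Day 2, and the cause was not tested. Raising values below 50 to 50 gave 6 falls for Day 0.25 against Day -1 and 3 for Day 5 against Day 2. The probe set with the highest absolute t gave 1 rise for Day 0.25 against Day -1. With each array left out in turn, the falls ranged from 0 to 3 for Day 0.25 against Day -1 and from 1 to 3 for Day 0.25 against Day 0. The rises ranged from 1 to 3 for Day 0 against Day -1, 8 to 14 for Day 0.25 against Day 0, 0 to 1 for Day 1 against Day 0.25, 0 to 2 for Day 2 against Day 1, 0 to 1 for Day 5 against Day 2 and 1 to 2 for Day 5 against Day -1. The log2 difference of Ercc1 between Day -1 and Day 5, -0.02, was 0.0379 under quantile normalization and ranged from -0.161 to 0.0956 with 1 array of either day left out. That of Lig3, -0.08, ranged from -0.173 to 0.0216 in the same way, and neither gene passed in any of these fits. Single genes were recomputed only without each of the 6 arrays of those days. Deviations from the time point mean correlated between -0.770 and 0.555 over 21 pairs of same-numbered arrays, 9 of them over 0.1. In 6 of the 21 the same-numbered array was the closest of its time point, so the numbers did not pair the arrays throughout. The replicate block left 1 fall for Day 0.25 against Day -1 and kept all other counts within 1.5 times. Differences between signals below 50 have no usable order, so an order of sizes there holds only for the values as measured.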
